A study of Danio rerio with 16 samples.

Results

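Tandem poly(A) pairs are neighbouring RNA cleavage sites on the same strand, of which the upstream one gives the shorter transcript and the downstream one the longer. The pairs described here lay at least 200 and under 1000 nt apart in the genome of the zebrafish, Danio rerio. They numbered 3321 of the 9302 neighbouring pairs that lay 50 to 5000 nt apart under the same tag minimum. The 3′ ends of the tags were clustered within 10 nt into sites of at least 4 tags over all libraries, no other site stood between the 2 members of a pair, and every pair had at least 20 tags in each library. Another 10812 pairs at this distance had fewer than 20 tags in at least 1 library and were not used. Mitochondrial sites were left out. The readout is the downstream share, the percentage of a pair's tags that ended at its downstream site.

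The libraries came from 3P-Seq, a method that captures the ends of polyadenylated RNA, in a study of long intergenic noncoding RNAs. They were made from wild-type (wt) whole embryos at 24 hours post fertilization (hpf), wild-type whole embryos at 72 hpf and wild-type whole adults of mixed gender, all kept under standard conditions, with 1 library per stage. Per the labels, embryos were broken up by douncing and adult fish with a TissueRuptor homogeniser, so stage and preparation cannot be told apart. Because whole animals were used, fewer cells of a type and less RNA per cell cannot be told apart, and the same holds for changes in the makeup of the animal and in site use within cells. The files pair no position with a gene and no annotation of their genome build was used, so the stage labels could not be checked against marker genes, and the 2 sites of a pair may belong to different genes.

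Most vertebrate genes end in more than 1 place. Cleavage and polyadenylation factors recognise a hexamer signal a short way upstream of the cut, and the choice between tandem sites sets how much of the 3′ untranslated region, with its binding sites for microRNAs and RNA-binding proteins, the messenger RNA keeps. Upstream sites are known to be favoured in germ cells and proliferating cells and downstream sites in the nervous system, as shown mostly in mammals and flies.

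Tags summed to 7423152 in the 24 hpf library, 9813481 in the 72 hpf library and 7470435 in the adult library. The 3321 pairs comprised 6387 distinct sites, which took 18.95%, 19.2% and 12.5% of the tags, in that order. The median pair had 119 tags at 24 hpf, 187 at 72 hpf and 101 in adults. These tags fell in a median of 11, 13 and 16 distinct intervals, where an interval is a deposited line with its own start and end. The adult library was also the one with the most intervals of 1 tag, 53.0% of them, against 15.1% at 24 hpf and 14.6% at 72 hpf. The part of this difference in the results below was not tested. With no replicate at any stage there is no test across samples, every comparison is between single libraries, and the 95% intervals are exact Clopper-Pearson intervals that cover counting error only. Tags copied from 1 molecule by PCR are not independent, so these intervals are too narrow.

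Most pairs used 1 of their sites far more than the other. At 24 hpf, 830 pairs had under 5% of their tags downstream and 1423 had over 95%, which left 1068, or 32.2%, in between. The numbers were 778, 1562 and 981 at 72 hpf and 968, 1209 and 1144 in adults. The median downstream share was 87.9% at 24 hpf, 92.3% at 72 hpf and 80.0% in adults. The downstream site held the majority of the tags in 2003, 2033 and 1911 pairs, in the same order. Thus the downstream site was the usual leading one in every library, and the adult library had the fewest pairs led by it.

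**Figure D1:**
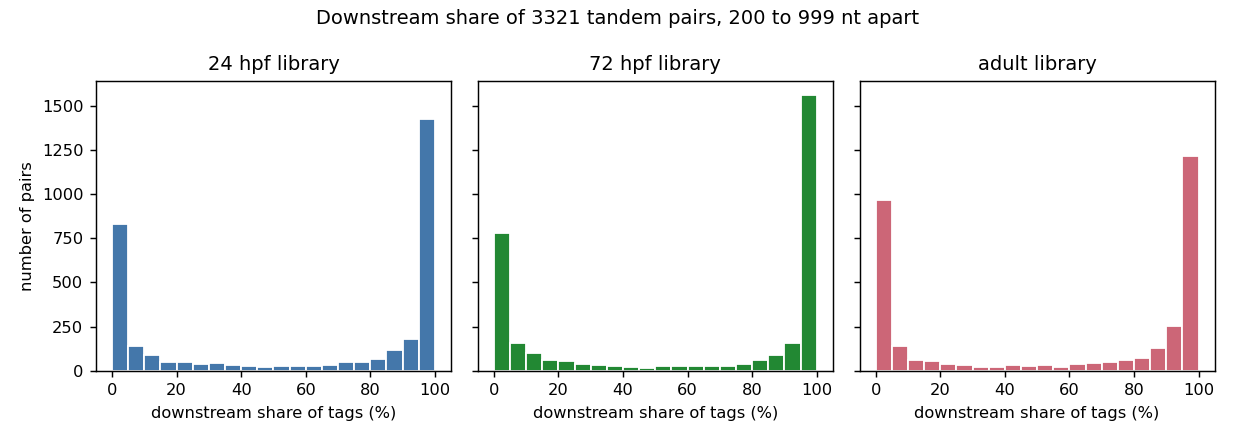
Number of pairs (y axis) by downstream share in percent (x axis, bins of 5 points) in the 24 hpf, 72 hpf and adult libraries. Pairs pile up at both ends in each panel, and the pile over 95% is lower in adults (1209 pairs) than at 24 hpf (1423) and 72 hpf (1562).

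A large part of the pairs owed their 2 sites to a weak one. In 2291 pairs, 69.0%, the weaker site had under 20 tags over the 3 libraries together, and it was the upstream one in 1417 of them and the downstream one in 874. The remaining 1030 pairs, with at least 20 tags at both sites, had median downstream shares of 66.0% at 24 hpf, 70.1% at 72 hpf and 46.9% in adults. A still smaller set of 440 pairs kept between 5% and 95% of its tags downstream in every library, with medians of 53.1%, 58.3% and 40.5%. Both sets were drawn by the measured tags and serve as a description. In each of them the adult median was the lowest of the 3.

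The downstream share differed little across the libraries in the majority of pairs. A near-empty site leaves a share little room to move, and 2291 pairs (69.0%) had a site with under 20 tags over all libraries together. A narrow range is therefore not evidence of a steady choice between well-used sites. In 2142 pairs, 64.5%, the highest and the lowest of the 3 shares lay within 10 points of each other, the same percentage as over all 9302 pairs (64.5%). A range of at least 20 points was found in 629 pairs, 18.9%, against 18.2% of all pairs. Of these 629, the single lowest share was the adult one in 388 pairs, the 24 hpf one in 157 and the 72 hpf one in 63, while the single highest share was the adult one in 76, the 24 hpf one in 200 and the 72 hpf one in 275. Over all 9302 pairs, 1693 had that range. Of these 1693, the single lowest share was the adult one in 996 (10.7% of all pairs), the 24 hpf one in 398 and the 72 hpf one in 222. The single highest share was the adult one in 255 (2.74% of all pairs), the 24 hpf one in 547 and the 72 hpf one in 698. The adult library thus most often held the lowest share over all pairs as well. The upstream site was the leading one in all libraries in 1236 pairs and the downstream site in 1859, and 226 pairs had no common leading site.

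Set against 72 hpf, the adult library moved toward upstream sites. A pair is called moved upstream when its downstream share was lower by at least 20 percentage points in the later library, and moved downstream when it was higher by as much. In the adult, 362 of 3321 pairs (10.9%) were moved upstream and 47 (1.42%) downstream, against 10.03% and 2.17% of all 9302 pairs (12.2% either way). Of the moved pairs, 88.5% had therefore gone upstream. The upstream percentage stood near that of all pairs, which include these 3321. The downstream one was lower, also than in pairs 50 to under 200 nt (2.46%) and 1000 to 5000 nt apart (2.81%). Whether that exceeds the spread between animals could not be tested. The median change over all 3321 pairs was only -0.98 points, and 2912 pairs stayed within 20 points. The leading site, the one with the majority of tags, changed in 152 pairs, against 5.15% of all pairs. It passed to the upstream site in 133 and to the downstream site in 19, against 4.18% and 0.968%.

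Where a pair stood at 72 hpf set how it could move, since a share under 20% cannot be lower by 20 points. Of the 2228 pairs with at least 20% downstream at 72 hpf, 16.2% were moved upstream, and of the 1462 pairs with at most 80%, 3.21% were moved downstream, against 15.3% and 4.76% of all pairs. Among the 1859 pairs with over 80% downstream at 72 hpf, 200 were moved upstream in adults, 10.8% against 10.3% of all pairs of that kind. Among the 1093 pairs with under 20% downstream, 19 were moved downstream, 1.74% against 2.82%. In the 369 pairs that stood between 20% and 80%, 162 went upstream and 28 downstream, 43.9% and 7.59%, against 39.1% and 10.6% of all pairs, and the median change was -16.8 points. The move open to pairs near the high end was thus found more often than the one open to pairs near the low end. Since the 72 hpf share both sorts the pairs and enters the change, these counts are a description.

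Against 24 hpf the adult library again held more pairs moved upstream, although with more in the other direction. There were 338 moved upstream (10.2%) and 114 downstream (3.43%), against 9.26% and 3.50% of all pairs (12.8% either way). Both adult comparisons share the adult library, so they are not independent of each other. The leading site changed in 166 pairs, against 5.24% of all pairs, passing to the upstream site in 126 and to the downstream site in 40, against 3.91% and 1.32%. Of the 2215 pairs able to move upstream by 20 points, 15.3% did, and of the 1537 able to move downstream, 7.42% did, against 14.1% and 7.41%. Of the 1784 pairs over 80% downstream at 24 hpf, 178 were moved upstream, 9.98% against 9.71% of all pairs. Of the 1106 pairs under 20%, 34 were moved downstream, 3.07% against 3.55%. The 431 pairs in between had 160 moved upstream and 80 downstream, 37.1% and 18.6% against 32.4% and 17.8%.

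Between the embryo libraries the balance lay the other way. At 72 hpf, 175 pairs were moved downstream (5.27%) and 96 upstream (2.89%) relative to 24 hpf, against 4.86% and 3.17% of all pairs (8.03% either way). The leading site changed in 103 pairs, against 3.24% of all pairs, passing to the downstream site in 67 and to the upstream site in 36, against 1.95% and 1.29%. Of the pairs able to move by 20 points, 11.4% of 1537 went downstream and 4.33% of 2215 upstream, against 10.3% and 4.84%. The 431 pairs between 20% and 80% downstream at 24 hpf had 118 moved downstream and 65 upstream, 27.4% and 15.1% against 25.3% and 15.8%. From over 80%, 31 of 1784 went upstream, against 2.18% of all such pairs, and from under 20%, 57 of 1106 went downstream, against 4.70%. These percentages for the 3321 pairs stood close to those of all pairs. The same held in the adult comparisons, apart from the lower downstream percentages of the adult against 72 hpf.

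**Figure D2:**
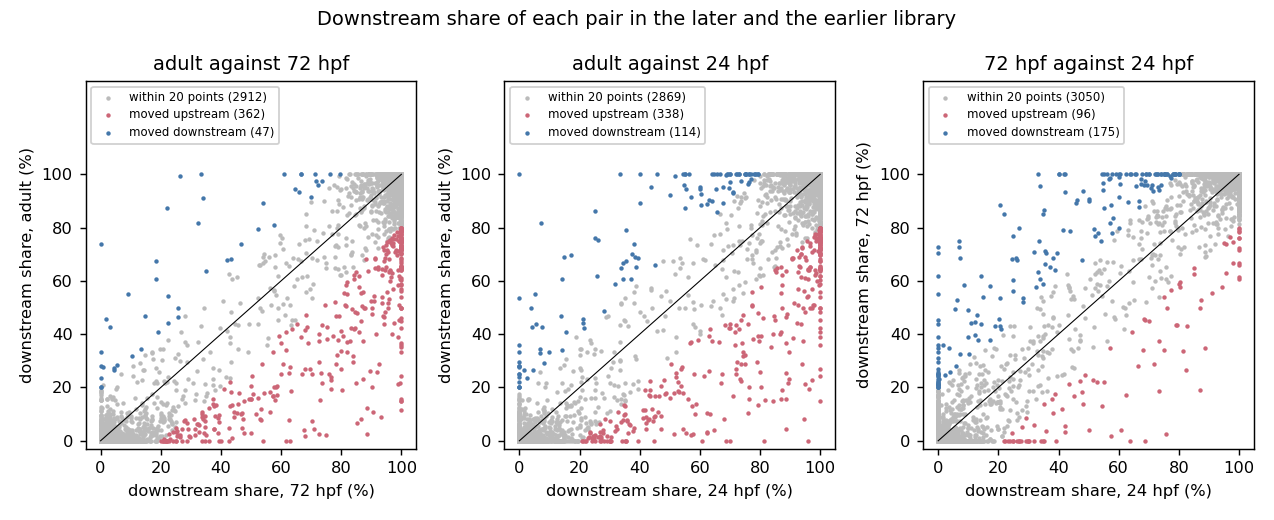
Downstream share of each pair in the later library (y axis, percent) against the earlier library (x axis, percent) for adult against 72 hpf, adult against 24 hpf and 72 hpf against 24 hpf. In both adult panels the points below the diagonal by at least 20 points (362 and 338) outnumber those above it (47 and 114), and in the embryo panel the points above outnumber those below (175 against 96).

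Wider moves kept the same balance. A difference of at least 40 points was found upstream in 108 pairs and downstream in 10 in adults relative to 72 hpf, against 3.34% and 0.570% of all pairs. It was found in 95 and 24 in adults relative to 24 hpf (3.21% and 0.817% of all pairs) and in 15 and 44 for 72 hpf against 24 hpf (0.591% and 1.19%). Over the 3 libraries, 193 pairs had a range that wide, against 6.17% of all pairs. With 20 points and the further demand that the tag intervals lie apart, adults relative to 72 hpf had 321 upstream and 36 downstream, against 8.88% and 1.72%. Adults relative to 24 hpf had 294 and 79 (8.10% and 2.54%), and 72 hpf against 24 hpf had 71 and 133 (2.39% and 3.90%). The direction that led was thus the same under these stricter rules in each comparison.

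The selection of pairs with at least 20 tags at both sites is partly set by the change itself, because a site can pass through the tags of 1 library and a pair with a near-empty site can hardly move. Its higher percentages are therefore to be read only beside those of all pairs selected alike. Of the 1030 pairs with at least 20 tags at both sites, 287 (27.9%) were moved upstream and 30 (2.91%) downstream in the adult against 72 hpf, against 24.2% and 4.84% of all such pairs. Against 24 hpf it was 263 and 66 (21.7% and 7.23% of all such pairs), and at 72 hpf against 24 hpf 69 upstream and 115 downstream (6.93% and 10.2%).

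Moves of 20 points were more frequent among pairs with few tags, in both directions. In the adult against 72 hpf, 225 of the 1357 pairs with 20 to 49 tags in their lowest library were moved upstream and 39 downstream, 16.6% and 2.87%, against 15.02% and 4.03% of all pairs of that depth. The 965 pairs with 100 to 499 tags had 59 and 4, 6.11% and 0.415%, against 5.86% and 0.719%. The 240 pairs with 500 tags or more had 5 and 1, against 1.42% and 0.142%. The percentages were thus lower at higher depth among all pairs as well. Taking the 1205 pairs with a minimum of 100 tags per library, 64 were moved upstream and 5 downstream, against 4.93% and 0.598% of all pairs of that depth. For the adult against 24 hpf the numbers at that depth were 64 and 8, against 4.63% and 0.747%. Between the embryo libraries they were 7 upstream and 10 downstream at 72 hpf, against 0.628% and 0.986%, so at this depth the balance between the embryo libraries rests on few pairs.

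A strict count took each distinct interval once, whatever its tags. It asked for a change of at least 20 points in the share of distinct intervals, with exact 95% intervals that do not overlap. A move by tags was not asked for, so its pairs are not all among the moved pairs above. The chromosome 16 pair at 7435751, for example, had 99.8% of its tags downstream at 72 hpf and 91.7% in adults. This way of counting was chosen after the data were seen. It gives an interval of 1 tag the weight of any other, and such intervals were 53.0% in adults, 15.1% at 24 hpf and 14.6% at 72 hpf. The part of that difference in the strict count was not tested. For the adult against 72 hpf the strict count found 17 pairs moved upstream and 0 downstream, against 0.656% and 0.0430% of all pairs. For the adult against 24 hpf it found 15 and 0, against 0.527% and 0.0860%. At 72 hpf against 24 hpf it found 0 upstream and 1 downstream, against 0.0215% and 0.0108%. That 1 pair, picked out by its values, stood on chromosome 16 (minus strand, 6974386 and 6973681, danRer7), with 0 of 262 tags downstream at 24 hpf, 19.4% of 289 tags at 72 hpf and 1.13% of 353 tags in adults.

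The frequency of moves differed with the distance between the sites. In the adult against 72 hpf, 164 of 1656 pairs under 400 nt apart were moved upstream (9.90%), 119 of 1088 pairs from 400 to under 700 nt (10.9%) and 79 of 577 pairs from 700 to under 1000 nt (13.7%). Pairs moved downstream numbered 26 (1.57%), 17 (1.56%) and 4 (0.693%) in the same bands. The adult against 24 hpf gave 9.30%, 10.2% and 12.7% upstream and 3.99%, 3.31% and 2.08% downstream. For comparison, pairs 50 to under 200 nt apart had 8.05% upstream and 2.46% downstream in the adult against 72 hpf, and pairs 1000 to 5000 nt apart had 11.97% and 2.81%. The band from 700 nt thus had the highest percentage upstream and the lowest downstream of the 5 bands in both adult comparisons, and whether that exceeds the spread between animals could not be tested. Between the embryo libraries the same bands had 2.96%, 2.39% and 3.64% upstream and 5.25%, 5.51% and 4.85% downstream, with no such order.

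**Figure D3:**
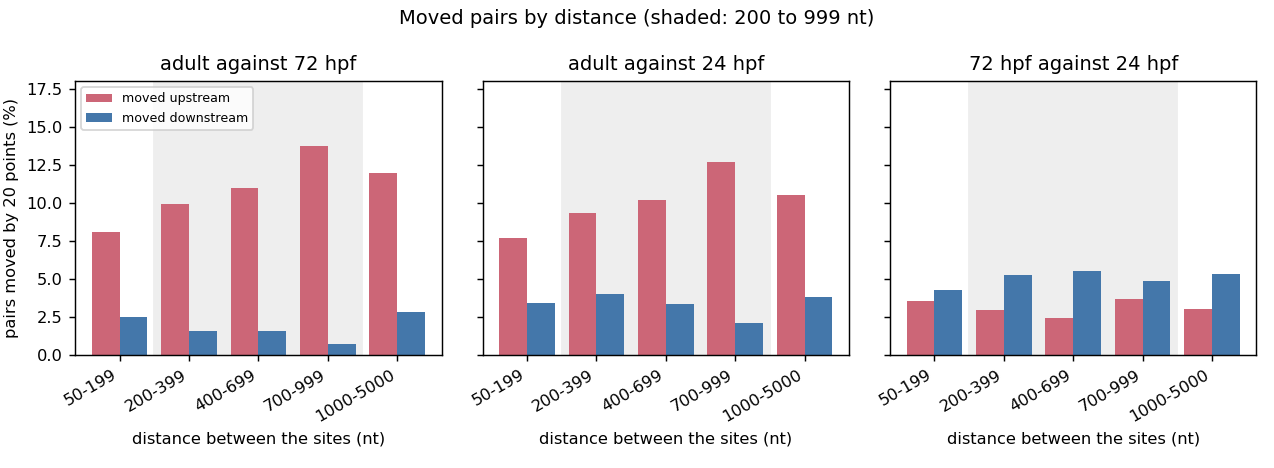
Percentage of pairs moved by at least 20 points (y axis) in 5 bands of distance between the sites (x axis, nt) for each pair of libraries, with moves upstream and downstream as separate bars and no error bars because each stage has 1 library. Bars for upstream moves go up across the shaded bands in the adult panels, to 13.7% against 72 hpf and 12.7% against 24 hpf in the band from 700 to under 1000 nt.

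The level of each site shows which of the 2 sites differed when a pair moved. Levels are CPM (tags scaled to 1000000 per library), and a site without tags was set to 3 tags. In moved pairs, folds against such sites are therefore bounds. Sites with tags but fewer than 3 were left as counted, so their fold against a site without tags can have the wrong sign. The counts over all pairs and in pairs within 20 points, here and below, can hold such cases. How many they hold was not determined. In the 362 pairs moved upstream in the adult against 72 hpf, the upstream site was at least 2-fold higher in 263 pairs and the downstream site at least 2-fold lower in 220. Over all 9302 pairs, 27.7% of upstream sites were at least 2-fold higher in adults and 39.9% of downstream sites at least 2-fold lower. Moved pairs, here and in the comparisons of site levels below, were picked by these same tags. An excess over all pairs therefore follows from the selection, and the counts are a description. Of the 362 pairs, 129 had both of these changes, 120 had only the higher upstream site and 77 had only the lower downstream site. Another 14 had both sites higher, 14 had both lower, and 8 had neither site changed 2-fold. In the 2912 pairs that stayed within 20 points, 152 had both changes, 372 only the higher upstream site and 611 only the lower downstream site. Such combinations were not counted over all 9302 pairs, here or below. The level of the whole pair differed in both directions, with a median log2 ratio of -0.00 and quartiles of -0.95 and 1.00, while in the 2912 pairs that stayed within 20 points the median was -0.44. With the median-ratio scaling described next these medians were 0.38 and -0.06.

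Some of the upstream sites had no tag at the earlier stage. There were 0 tags at 72 hpf in 81 of the 362 pairs, and at 24 hpf in 81 of the 338 pairs moved upstream against that stage. Among pairs that stayed within 20 points it was 764 of 2912 and 767 of 2869. A count of 0 allows up to 0.306 CPM at 72 hpf and 0.404 CPM at 24 hpf. The downstream site had 0 tags in adults in 23 of the 362 and 25 of the 338 pairs, where 0 tags allow up to 0.402 CPM. In the pairs within 20 points it was 477 of 2912 and 475 of 2869. A pair with a near-empty site can hardly move, so the moved pairs and those within 20 points are not like sets. Nothing is concluded from these counts of sites without tags. Of the 338 pairs, 225 had an upstream site at least 2-fold higher and 209 a downstream site at least 2-fold lower in adults, against 22.4% and 35.8% over all pairs. With libraries scaled by the median ratio over sites, which adds 0.39 to every log2 ratio of the adult against 72 hpf, the counts for the 362 pairs were 291 upstream sites higher and 175 downstream sites lower, so which of the 2 was the more frequent did not depend on this choice.

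At 72 hpf against 24 hpf, the 175 pairs moved downstream had a lower upstream site in 112 and a higher downstream site in 105, by at least 2-fold, against 23.5% and 23.03% of all pairs. The 96 pairs moved upstream had a lower downstream site in 63 and a higher upstream site in 47, against 18.5% and 17.04%. Lower sites were thus somewhat more frequent than higher ones in both sets of pairs. A gain at 1 site and a loss at the other stood together in 53 of the 175 and 17 of the 96. In the 3050 pairs within 20 points, a lower upstream with a higher downstream site was found in 80 and the reverse in 26.

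In the pairs moved downstream in the adult library the upstream site differed the more often. Of the 47 against 72 hpf, 35 had an upstream site at least 2-fold lower and 29 a downstream site at least 2-fold higher, against 25.2% and 14.8% of all pairs. Of the 114 against 24 hpf, 82 had the lower upstream site and 63 the higher downstream site, against 27.97% and 14.3%. Both changes stood together in 35 of the 114, and in 44 of the 2869 pairs within 20 points. With median-ratio scaling the order of the 2 sites was turned round. A lower upstream site then stood in 28 of the 47 and a higher downstream site in 31. In the 114 it was 70 and 76.

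**Figure D4:**
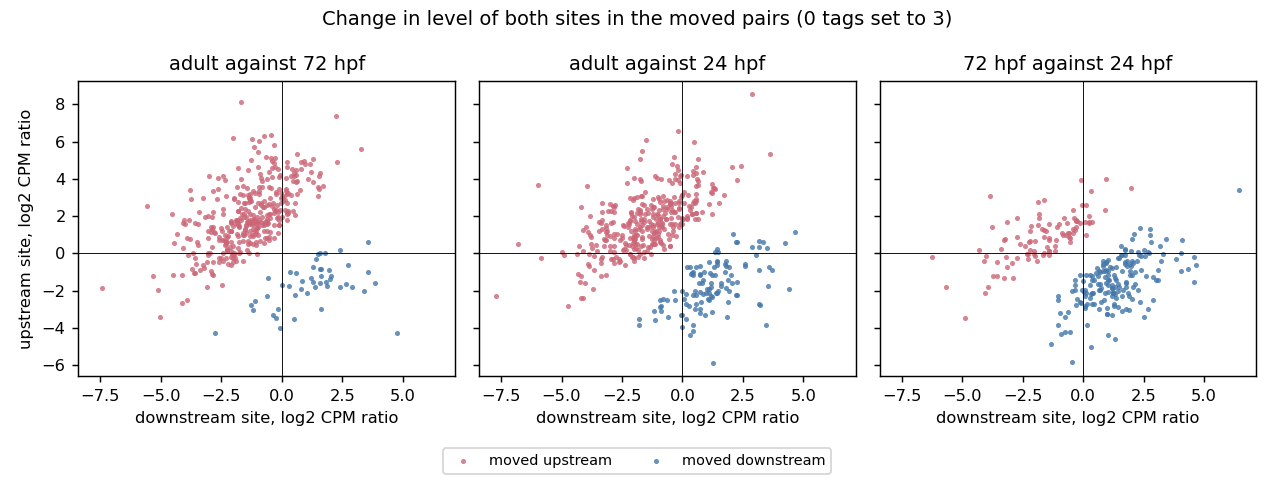
Log2 ratio of CPM in the later over the earlier library for the upstream site (y axis) and the downstream site (x axis) of every moved pair, with 0 tags set to 3. In the panel for the adult against 72 hpf the 362 pairs moved upstream have median ratios of 1.81 at the upstream site and -1.33 at the downstream site.

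Single loci are given for the largest moves, from pairs that held 100 tags or more at every stage and moved the same way over distinct intervals. Positions are 1-based on danRer7 (Zv9). The widest move upstream in the adult against 72 hpf was on chromosome 10, plus strand, at 27727780 and 27728530, 750 nt apart. Its downstream share was 89.4% at 24 hpf, 99.6% at 72 hpf and 21.8% in adults (95% intervals 85.2% to 92.8%, 97.8% to 99.99% and 17.0% to 27.2%). The upstream site counted 29, 1 and 212 tags at the 3 stages in order of age, and the downstream site 245, 247 and 59. By tags the adult stood apart from both embryo libraries, at both sites. Over distinct intervals the adult differed from 72 hpf by -39.5 points. The upstream site had 3, 1 and 11 distinct intervals and the downstream site 14, 11 and 12, so by that count the downstream site hardly differed. No other same-strand site lay within 5000 nt of this pair.

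A higher tag number lay behind the pair on chromosome 9, minus strand, at 33320332 and 33319916. It had 80.0% of 1791 tags downstream at 24 hpf, 91.8% of 3577 at 72 hpf and 25.9% of 436 in adults (intervals 78.1% to 81.8%, 90.9% to 92.7% and 21.9% to 30.3%). Its upstream site was at 48.2, 29.8 and 43.2 CPM and its downstream site at 193, 335 and 15.1 CPM. By CPM the upstream site differed less, and the downstream site was the one that was low in adults. In distinct intervals both sites differed, with 21, 16 and 41 upstream and 30, 38 and 20 downstream. This pair was also among the 17 found by the strict count.

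A pair on chromosome 1, minus strand, at 1023114 and 1022221, 893 nt apart, differed more at its upstream site. Its downstream share was 100% of 112 tags at 24 hpf, 99.3% of 273 at 72 hpf and 45.2% of 197 in adults (intervals 96.8% to 100%, 97.4% to 99.9% and 38.1% to 52.4%). The upstream site had 0 tags at 24 hpf, 2 at 72 hpf and 108 in adults, whereas the downstream site had 112, 271 and 89. The downstream site was at 15.1, 27.6 and 11.9 CPM, so it too differed between 72 hpf and adults. An upstream site with next to no tags in the embryo libraries was thus as strong as the downstream one in adults. This pair had no other same-strand site within 5000 nt and was found by the strict count for both adult comparisons.

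The other leading pairs for the adult against 72 hpf were on chromosome 11, minus strand, at 27304241 and 27303943, and on chromosome 8, plus strand, at 51708583 and 51708791. The chromosome 11 pair had 84.2%, 96.9% and 40.2% of its tags downstream at the 3 stages, from 24 hpf to adult (intervals 78.8% to 88.7%, 94.0% to 98.7% and 35.0% to 45.5%). The chromosome 8 pair had 72.3%, 83.8% and 29.7% (66.2% to 78.0%, 78.6% to 88.2% and 22.4% to 37.8%). In both, the adult interval lay below those of the embryo libraries, which lay apart from each other as well, by little for the chromosome 8 pair.

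Among pairs chosen in this way, moves downstream in the adult against 72 hpf were smaller. The widest, on chromosome 1, plus strand, at 772724 and 773193, had 14.8%, 5.36% and 28.4% downstream at 24 hpf, 72 hpf and in adults (intervals 9.64% to 21.4%, 3.21% to 8.33% and 20.5% to 37.6%), so the adult and 24 hpf intervals overlapped. On chromosome 19, minus strand, at 31647282 and 31646946, the shares were 1.52% of 2310 tags, 4.502% of 1777 and 26.7% of 176 (1.06% to 2.10%, 3.59% to 5.57% and 20.3% to 33.9%). In that pair the downstream site stayed at 4.71, 8.15 and 6.29 CPM and the upstream site was at 306, 173 and 17.3 CPM. The higher share came with a lower upstream site, not with a higher downstream one.

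A pair on chromosome 20 (plus strand, 46984164 and 46985047) was higher by 21.95 points in adults than at 72 hpf by tags. It was not ranked here because its change over distinct intervals was -11.2 points. The remaining moves downstream named for that comparison were on chromosomes 6, 13 and 21. They were of 20.7 points (plus strand, 52173768 and 52174135), 14.4 points (minus strand, 9519600 and 9518934) and 14.1 points (minus strand, 44204041 and 44203380), in that order. The chromosome 6 pair is also the one with the most tags, as a sum of CPM, among pairs with 20% to 80% downstream in every library, at 28.9% of 1636 tags, 25.7% of 1691 and 46.4% of 900. Over distinct intervals its share was 61.4% in adults and 61.3% at 72 hpf, so with that count it hardly differed. The moves of the chromosome 13 and chromosome 21 pairs were under 20 points. Over distinct intervals the moves were 2.48 points for the chromosome 13 pair, 4.29 for the chromosome 21 pair and 4.73 for the chromosome 19 pair at 31647282, so that among the 5 leading moves downstream that of 772724 on chromosome 1 alone reached 20 points with that count, at 38.3.

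Against 24 hpf, the widest named move upstream, on chromosome 12, minus strand, at 28778149 and 28777770, depended on where a site was taken to end. Its shares were 97.1%, 76.6% and 22.9% at 24 hpf, 72 hpf and in adults. Another cluster lay 11 nt beyond the downstream site. With all same-strand tags within 50 nt of each site counted, a way of counting chosen after the data were seen, the shares were 99.6%, 98.4% and 76.4%. The adult was still the lowest, but its difference from 24 hpf was -23.3 points in place of -74.2. Close clusters were not particular to this pair. In 1079 of the 3321 pairs another same-strand cluster lay within 50 nt of a site.

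The chromosome 4 pair, minus strand, at 7452141 and 7451260, 881 nt apart, showed a stepwise order. It had 88.6% of 140 tags downstream at 24 hpf, 73.3% of 397 at 72 hpf and 25.5% of 330 in adults (intervals 82.1% to 93.3%, 68.7% to 77.6% and 20.8% to 30.5%). The upstream site was at 2.16, 10.8 and 32.9 CPM and the downstream site at 16.7, 29.7 and 11.2. No interval overlapped another, and the upstream site was higher at each later stage. A pair on chromosome 6, minus strand, at 39828782 and 39828409, had 58.3%, 46.6% and 10.1% (49.8% to 66.5%, 37.8% to 55.5% and 7.17% to 13.8%), with embryo intervals that overlapped. Over distinct intervals the adult differed from 24 hpf by -28.8 points in the chromosome 4 pair and by -10.5 in the chromosome 6 pair.

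On chromosome 8, minus strand, the sites 47194686 and 47194441 gave a downstream share of 94.2% over 798 tags at 24 hpf, 87.1% over 403 at 72 hpf and 37.3% over 614 in adults (intervals 92.4% to 95.7%, 83.4% to 90.2% and 33.5% to 41.3%). Its upstream site was at 6.20, 5.30 and 51.5 CPM. The embryo libraries stood near each other and the adult far below.

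Moves downstream against 24 hpf were led by a pair on chromosome 10, minus strand, at 38117915 and 38117680, 235 nt apart. Its shares were 5.65% of 513 tags at 24 hpf, 49.4% of 1267 at 72 hpf and 43.8% of 1255 in adults (intervals 3.82% to 8.02%, 46.6% to 52.2% and 41.1% to 46.6%). The downstream site was at 3.91, 63.8 and 73.6 CPM, and the upstream site at 65.2, 65.3 and 94.4. By tags, a downstream site that was weak at 24 hpf was thus close to the upstream one in the 72 hpf and adult libraries, whose intervals just met. Over distinct intervals the shares were 33.3%, 65% and 47.5%. The adult then differed from 24 hpf by 14.1 points and from 72 hpf by -17.5. This pair also stood among the leading moves downstream at 72 hpf against 24 hpf.

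Further moves of this kind were on chromosome 14, plus strand, at 297023 and 297498, with 68.6%, 97.6% and 99.7% downstream at 24 hpf, 72 hpf and in adults (intervals 61.4% to 75.3%, 95.4% to 98.97% and 98.2% to 99.99%). The upstream site there had 58, 8 and 1 tags. On the same strand, at 40287858 and 40288333, the shares were 39.5% of 778 tags, 70.3% of 1942 and 68.5% of 130 (36.01% to 42.99%, 68.2% to 72.3% and 59.7% to 76.3%). In both chromosome 14 pairs 24 hpf stood apart and the other libraries overlapped.

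A pair on chromosome 1, plus strand, at 47113973 and 47114274, placed 38.3% of 381 tags downstream at 24 hpf, 56.0% of 709 at 72 hpf and 68.8% of 356 in adults (intervals 33.4% to 43.4%, 52.3% to 59.7% and 63.7% to 73.6%). An end on the opposite strand lay between its sites. The chromosome 21 pair at 44204041 likewise went stepwise, with 15.6%, 26.7% and 40.8% (12.5% to 19.1%, 22.6% to 31.1% and 36.5% to 45.2%). Over distinct intervals the adult was above 24 hpf by 9.05 points in the chromosome 1 pair and by 18.3 in the chromosome 21 pair. These 2 pairs were the only ones of at least 100 tags per library that went downstream by at least 10 points at each step with the same direction over distinct intervals.

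**Figure D5:**
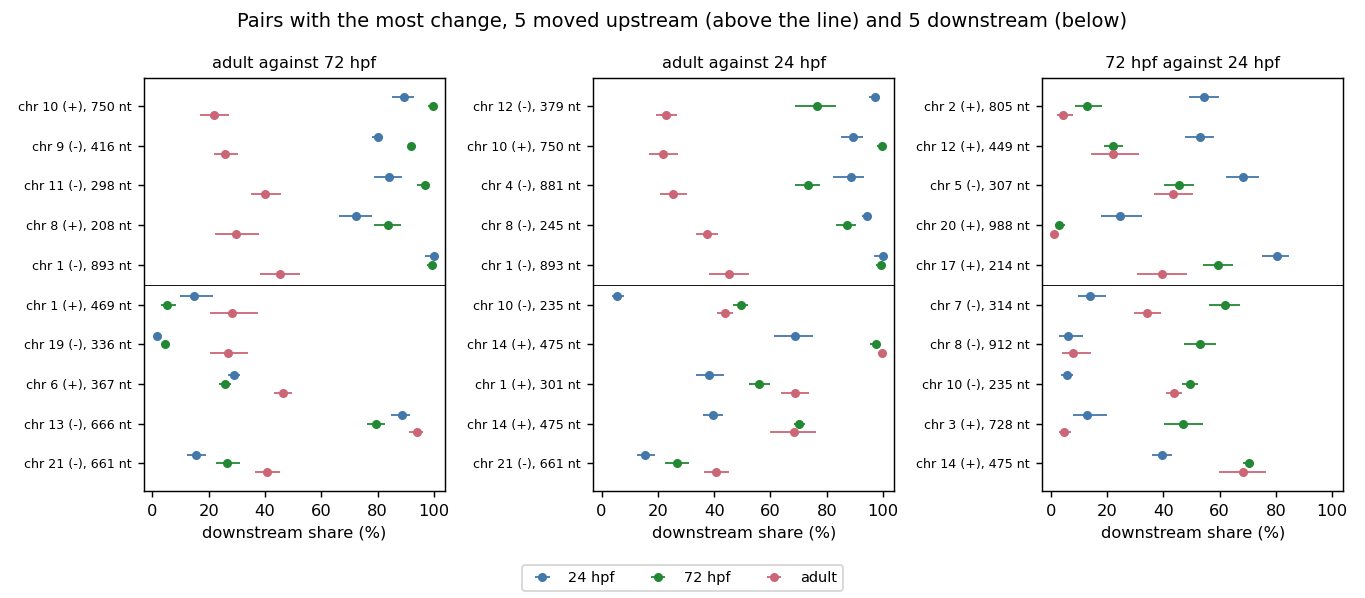
Downstream share in percent (x axis) of the 5 widest moves upstream and the 5 widest downstream for each pair of libraries. Bars are exact 95% intervals, with 1 color per library. Only pairs holding 100 tags or more at every stage and moving the same way over distinct intervals were ranked. Rows name the chromosome, strand and distance. Upstream moves in the adult against 72 hpf span 54.1 to 77.8 points and downstream moves 14.1 to 23.1.

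Among the pairs named for the embryo libraries, the widest move was downstream, on chromosome 7, minus strand, at 34169183 and 34168869. The shares were 14.1% at 24 hpf (171 upstream and 28 downstream tags), 61.8% of 314 tags at 72 hpf and 34.2% of 398 in adults (intervals 9.56% to 19.7%, 56.2% to 67.2% and 29.5% to 39.1%). The 72 hpf library was the highest, and the adult lay between it and 24 hpf.

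In 2 others the 72 hpf library was the highest by tags and the adult was far below it. On chromosome 8, minus strand, at 26183349 and 26182437, the shares were 6.16% of 146 tags at 24 hpf, 53.0% of 317 at 72 hpf and 8.06% of 124 in adults (2.86% to 11.4%, 47.3% to 58.6% and 3.94% to 14.3%). Its downstream site was at 1.21, 17.1 and 1.34 CPM, while its upstream site stayed at 18.5, 15.2 and 15.3. On chromosome 3, plus strand, at 17736963 and 17737691, the shares were 13.04%, 47.1% and 4.84% (7.92% to 19.8%, 40.2% to 54.1% and 3.02% to 7.30%). The adult and 24 hpf intervals overlapped in the chromosome 8 pair, and in the chromosome 3 pair the adult lay below 24 hpf. By distinct intervals, the adult differed from 72 hpf by -16.1 points in the chromosome 8 pair and -10.1 in the chromosome 3 pair, in place of -44.9 and -42.3 by tags. The chromosome 3 downstream site had 4, 7 and 9 distinct intervals, the most in adults, and the chromosome 8 one 3, 11 and 7.

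Moves upstream at 72 hpf were led by chromosome 2, plus strand, at 54262316 and 54263121, 805 nt apart, with 54.4% of 355 tags downstream at 24 hpf, 12.96% of 216 at 72 hpf and 4.44% of 225 in adults (intervals 49.03% to 59.6%, 8.79% to 18.2% and 2.15% to 8.02%). The upstream site was at 21.8, 19.2 and 28.8 CPM and the downstream site at 26.0, 2.85 and 1.34, so the downstream site was the one that was lower at the later stages. Over distinct intervals the shares were 61.5%, 54.5% and 14.3%, with the embryo libraries close together.

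The others were on chromosome 12, plus strand, at 28631923 and 28632372, with 52.9%, 22.2% and 22% (47.6% to 58.1%, 18.9% to 25.6% and 14.3% to 31.4%), and on chromosome 5, minus strand, at 14540162 and 14539855, with 68.4%, 45.6% and 43.6% (62.2% to 74.1%, 40.2% to 51.0% and 36.8% to 50.6%). A further pair, on chromosome 20, plus strand, at 29251039 and 29252027, had 24.7%, 3.02% and 1.23% (17.9% to 32.5%, 1.62% to 5.10% and 0.336% to 3.12%). By tags, 24 hpf stood apart in these 3 pairs and the 72 hpf and adult intervals overlapped. Over distinct intervals the shares were 46.2%, 33.3% and 26.1% for the chromosome 12 pair and 52.4%, 41.4% and 44.7% for the chromosome 5 pair. They were 53.3%, 23.1% and 11.1% for the chromosome 20 pair. On chromosome 17, plus strand, at 44048587 and 44048801, all 3 libraries stood apart by tags, with 80.3%, 59.4% and 39.4% (75.2% to 84.7%, 53.9% to 64.7% and 30.8% to 48.4%). The chromosome 17 shares over distinct intervals were 69.2%, 50% and 48.3%, so that the adult differed from 72 hpf by -1.72 points in place of -20.03.

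Pairs that used both sites at every stage could still be strong. Besides the pairs at chromosome 6 and at 40287858 on chromosome 14, the most tags among pairs with 20% to 80% downstream throughout were held on chromosome 19, plus strand, at 41962959 and 41963239, and on chromosome 20, plus strand, at 46984164 and 46985047. The chromosome 19 pair had 25.1%, 42.9% and 23.7% downstream at 24 hpf, 72 hpf and in adults (intervals 20.7% to 29.97%, 40.7% to 45.2% and 19.3% to 28.6%). The chromosome 20 pair had 21.3%, 22.4% and 44.3% (18.6% to 24.2%, 20.1% to 24.8% and 37.7% to 51.2%). Different libraries stood apart in the 2 pairs, 72 hpf in the first and the adult in the second. Over distinct intervals neither held, with 21.7%, 15.9% and 18.9% for the chromosome 19 pair and 35.7%, 46.9% and 35.7% for the chromosome 20 pair. At 500 tags or more per library, no pair kept its share between 40% and 60% in all of them.

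Which of the strands a pair lay on, and whether the opposite strand held an end inside it, did not enter the choice of the pairs. The plus strand held 1680 pairs and the minus strand 1641, and in the adult against 72 hpf 177 of the first and 185 of the second were moved upstream, against 10.02% and 10.05% of all pairs there. At 72 hpf against 24 hpf, 75 pairs on the plus and 100 on the minus strand were moved downstream, against 4.79% and 4.93%, and 62 and 34 upstream, against 3.37% and 2.97%. An end on the opposite strand lay between the sites of 195 pairs (5.87%), and of 22 of the 362 pairs moved upstream (6.08%). At pairs 50 to under 200 nt apart the share of pairs with such an end was 3.84% and at pairs 1000 to 5000 nt apart 10.8%.

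The 499 pairs with no other same-strand site within 5000 nt on either side are those least mixed with neighbouring sites. In the adult, 61 of them were moved upstream and 4 downstream relative to 72 hpf (12.2% and 0.802%), against 11.5% and 1.47% of all such pairs. Relative to 24 hpf it was 61 and 8, against 10.96% and 2.57%. At 72 hpf against 24 hpf, 9 were moved upstream and 17 downstream, against 1.99% and 4.34%. In isolated pairs the adult direction was therefore the same as in all 3321.

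A site was shared by 2 of the pairs in 239 runs of 3 sites and 8 runs of 4 sites, which made up 502 of the 3321 pairs. A strong middle site meets the tag minimum of both pairs alone and a strong outer site that of 1 pair only, so the rule favours runs with a strong middle site. The middle site of the 239 runs led in most of them, in 197 at 24 hpf, 200 at 72 hpf and 198 in adults. The first site led in 12, 10 and 26 runs and the last site in 30, 28 and 15. The mean share of the first site was 9.16% at 24 hpf, 6.24% at 72 hpf and 13.9% in adults, and that of the last site 13.8%, 14.7% and 8.87%. The adult library was thus the one in which the first site of such runs was the higher of the 2 outer ones, with the middle site at 77.1%, 79.0% and 77.2%.

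Cleavage was about as precise at both kinds of site. Precision was taken as the share of a site's pooled tags that fell on its leading position, for sites of at least 100 tags. Its median was 78.6% for 1355 upstream sites (quartiles 58.7% and 92.4%), 79.3% for 1978 downstream sites (60.5% and 92.7%) and 79.0% for all 15515 such sites of the genome without the mitochondrion (59.8% and 93.0%). Among the 158 pairs that kept 5% to 95% of tags downstream throughout and had 100 tags at each site, the upstream site was the more precise in 86 and the downstream one in 72.

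The limits of the selection were checked on the pairs beside them. Medians of the downstream share at 24 hpf, 72 hpf and in adults were 80.5%, 83.3% and 74.7% for the 71 pairs at or less than 5 nt above the lower limit of 200 nt and 94.5%, 96.8% and 91.3% for the 70 pairs up to 5 nt below it. They were 71.9%, 85.5% and 70.0% for the 394 pairs whose lowest library had 20 to 24 tags and 66.7%, 77.7% and 60.4% for the 548 pairs just below, with 15 to 19 tags. Few pairs lay at the upper limit of 1000 nt. The 7 pairs up to 5 nt below it had medians of 85.7%, 99.4% and 99.7%, and the 4 pairs at it or less than 5 nt above it, which were not members, had 99.9%, 99.7% and 51.7%.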

How the data were processed

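3P-Seq tags were aligned with Bowtie to Zv9 (danRer7), per the submitters' processing notes. For the Bowtie version, trimming and multi-mapping filter, nothing is given in the sources used here. The deposited files hold whole-number counts per aligned interval in the name field, read here as tags, not normalised by the authors as far as the values show. No label says what the number is. The display offset of 1, per the file headers, was added. The other 13 of the 16 samples were not analysed here.

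From the deposited counts, 3′ ends of all libraries were clustered strand by strand, most tags first and within 10 nt, keeping at least 4 tags, and neighbouring pairs were taken. Scripts used Python 3.11.15, numpy 2.4.6, pandas 2.3.3 and scipy 1.17.1 and were tested on simulated data. The simulated pairs had many tags, near-even shares before any change, wide changes and no close neighbours. Pairs with few tags, near-empty sites or close neighbours were not covered by that test. With 1 library per stage no test across samples was made. Pairs named singly were the 5 largest moves per direction and comparison, with at least 100 tags in each library and the same direction over distinct intervals. Also named were up to 3 moving by 10 points at both steps, and the 4 with most CPM at 20% to 80% downstream throughout. Pairs and rules were chosen with earlier results of these data known. Other clustering, tag minimums, thinning and counting rules were tried. Poly(A) signals and gene names were not analysed here.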

Additional observations from a re-analysis of the deposited data

How the results depend on the processing

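With 1 library per stage, none was left out. No paired analysis was possible because each stage had 1 library and no replicate number was shared. Depth limits pairs with few tags, and PCR copies of 1 molecule cannot be told from separate molecules. In each of the 3 comparisons the direction with more moves stayed the same under every setting that gave moves in both directions.

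Median downstream shares (24 hpf, 72 hpf, adult) were 82.2%, 87.5% and 71.8% with a clustering window of 24 nt, and 80.8%, 86.9% and 70% with single linkage. Counts of moves stayed within 1.5 times under both. With at least 20 pooled tags per site there were 2167 pairs, the medians were 71.3%, 76.1% and 51.3%, and 599 were moved upstream and 77 downstream in adults against 72 hpf and 547 upstream against 24 hpf. The leading site then changed in 344, 353 and 216 pairs (adult against 72 hpf, adult against 24 hpf, 72 hpf against 24 hpf), and the median changes were -6.40, -4.54 and 0.85 points. With at least 100 tags per library there were 1205 pairs with medians of 95.7%, 97.3% and 91.9%, moves of 64 upstream and 5 downstream, 64 and 8, and 7 and 10, leading sites changed in 28, 29 and 13, and a median change of -0.50 points in adults against 72 hpf.

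With each distinct interval counted once, 612 were moved upstream and 120 downstream, 592 and 191, and 182 and 273. Moves under this rule were not counted over all pairs 50 to 5000 nt apart. The higher counts are therefore no result about these pairs. The median changes for adults were then -4.08 points against 72 hpf and -2.14 against 24 hpf, and the medians 78.6%, 80% and 63.6%. With at least 5% of tags at both sites, the 3 libraries weighted equally, there were 1172 pairs, medians of 67.5%, 73.5% and 50.5%, and median changes of -10.1, -7.61 and 1.97 points. Pairs with no other site within 5000 nt gave 61 and 4, 61 and 8, and 9 and 17, leading sites changed in 20, 21 and 9, and medians of 95.02%, 97.0% and 88.2%. At 40 points the moves were 108 and 10, 95 and 24, and 15 and 44. With interval counts whose 95% intervals lie apart, a rule added after the data were seen, they were 17 and 0, 15 and 0, and 0 and 1.

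Thinning to the smallest library, leaving out pairs that share a site, and asking for tag intervals apart kept all counts within 1.5 times, and no near-copies were found to remove. Of the 84 downstream shares of named pairs, 66 lay outside their tag-based 95% interval when distinct intervals were counted, and 9 when all tags within 50 nt were counted. Beyond what each setting leaves out by construction, the cause of these differences was not tested.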
